A study of Mus musculus with 2 samples.

Results

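The interferon response genes examined here were 38 genes taken as a fixed list of interferon-induced transcripts, of which 37 were measured among the 27999 genes of each library (Mx2 was not analysed here). They fell into 6 role groups, comprising transcription factors, sensors of RNA and other nucleic acids, antiviral effectors, membrane proteins, guanosine triphosphatases (GTPases), and nucleases with others. A subset of 15 measured members (Isg15, Ifit1, Ifit2, Ifit3, Rsad2, Usp18, Mx1, Oas1a, Oas2, Oas3, Oasl2, Irf7, Rtp4, Zbp1 and Ifi44) is called the antiviral genes below. The genes were followed in dissociated whole mouse lung, profiled cell by cell with 10x Genomics droplets and RNA sequencing, in which each captured transcript is counted once by its unique molecular identifier (UMI). The study compared lungs with a low and a high metastatic burden to find what changes in the lung as metastases grow. Each group was 1 mouse and 1 library.

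Both mice were female FVB/NJ animals injected at 10 weeks of age through the tail vein with Met-1, a mammary carcinoma cell line that was derived from tumors of a mouse transgenic for the polyomavirus middle T antigen (PYMT). The low-burden lung was taken at week 1 and the high-burden lung at week 3 after injection, and no uninjected lung was analysed here. The intravenous model delivers tumor cells straight to the lung and holds no primary tumor. Both libraries carry the same batch label. Week, burden, mouse and library cannot be told apart, no comparison has a replicate check, and no p-value is given.

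Interferons are secreted proteins made when cells sense virus, misplaced nucleic acid or certain inflammatory signals. Type I interferons act through the receptor chains Ifnar1 and Ifnar2, and interferon gamma, a product of T and natural killer cells, acts through Ifngr1 and Ifngr2. Both pass their signal through Janus kinases to transcription factors that enter the nucleus. The complex formed after type I interferon, which holds Irf9, binds the interferon-stimulated response element (ISRE), and the complex formed after interferon gamma binds the gamma-activated site (GAS). Both elements are found near the start sites of induced genes.

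Promoter windows from RefSeq (GRCm38.p6, the assembly of mm10), running from 250 bases before to 50 bases after the start site, were given for 30 of the 38 members. The ISRE core (TTTC and again TTTC with any 2 bases between, either strand) was found in 18 of these 30 members, of which 7 had more than 1 window and were counted once, against 3.99% of all 27025 genes with a window. The GAS pattern (TTCNNNGAA, which reads the same on both strands) was found in 11 members (36.7%), against 9.55% of all genes. These are letter matches and not binding sites. To show the elements that the members share, and a member without them, 4 windows are printed as the 250 bases before the start site, 5′ to 3′ on the strand of the gene, with matches to either pattern in capitals.
Isg15: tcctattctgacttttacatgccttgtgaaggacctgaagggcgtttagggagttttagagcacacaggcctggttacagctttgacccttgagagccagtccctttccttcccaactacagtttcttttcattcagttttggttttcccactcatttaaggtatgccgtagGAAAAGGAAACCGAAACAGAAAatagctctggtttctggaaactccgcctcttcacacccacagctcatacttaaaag
Igtp: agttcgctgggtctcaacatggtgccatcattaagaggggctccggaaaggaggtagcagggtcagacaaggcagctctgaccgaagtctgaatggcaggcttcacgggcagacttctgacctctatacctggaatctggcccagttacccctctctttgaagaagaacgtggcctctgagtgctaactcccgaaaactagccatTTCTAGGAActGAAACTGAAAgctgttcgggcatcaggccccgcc
Ifit3: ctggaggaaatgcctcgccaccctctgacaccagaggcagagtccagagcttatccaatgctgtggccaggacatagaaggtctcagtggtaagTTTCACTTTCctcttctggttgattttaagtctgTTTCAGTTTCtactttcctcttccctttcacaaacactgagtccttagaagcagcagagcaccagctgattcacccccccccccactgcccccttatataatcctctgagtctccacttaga
Oasl2: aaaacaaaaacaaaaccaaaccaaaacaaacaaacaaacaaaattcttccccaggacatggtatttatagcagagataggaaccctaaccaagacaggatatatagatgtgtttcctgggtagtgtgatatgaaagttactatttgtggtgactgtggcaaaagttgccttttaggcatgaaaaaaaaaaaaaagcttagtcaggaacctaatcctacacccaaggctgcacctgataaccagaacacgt
The Isg15 window (chr4:156200819-156201068, minus strand) holds 3 overlapping ISRE cores, the nearest of which begins 66 bases before the start site. In Igtp (chr11:58199306-58199555, plus strand) an ISRE core begins 34 bases and a GAS match 45 bases before the start site. Ifit3 (chr19:34583279-34583528, plus strand) holds 2 ISRE cores, and Oasl2 (chr5:114896684-114896933, plus strand) holds neither pattern in this window. Several members are neighbours in the GENCODE M21 annotation. Ifit1, Ifit2 and Ifit3 lie together on chromosome 19, Gbp2, Gbp3 and Gbp7 on chromosome 3, Ifitm1, Ifitm2 and Ifitm3 on chromosome 7, and Oas1a, Oas2 and Oas3 on chromosome 5. Such families have similar sequences, so their single values are uncertain where the counting could split shared reads.

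After filtering, 2473 low-burden and 3033 high-burden cells remained, with medians of 4073 and 13998 UMIs, and 11 barcodes occurred in both libraries. Cells were placed in classes by gates on marker genes, none of which is a member, and 10 of the 23 classes held at least 20 cells in each library. Metastatic cells numbered 1277 at high burden and 0 at low burden, and cells with markers of more than 1 class (319 and 312) were left out of the classes. Metastatic cells were gated on tumor markers such as Fosl1, Etv4 and Hmga2, because PYMT was spread evenly, at 64.5 UMIs per 1000000 UMIs of the class (CPM) in metastatic cells and 61.0 CPM in C1q macrophages of the same library. RNA free in the droplets was estimated for each class from abundant transcripts of other compartments. In classes of at least 20 cells its weight was 7.26% to 14.5% of the average library profile in the low-burden mouse and 14.1% to 26.4% in the high-burden mouse, and the level it would give is set beside the sums below. The gated metastatic cells had 1592 CPM of their markers. Paired values below are given as low then high burden, and bracketed ranges are 95% intervals that cover counting error only.

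The summed members were higher at high burden in 8 of the 10 classes compared, with an interval of the log2 ratio above 0, and in no class was the interval below 0. C1q macrophages, the interstitial type that carries complement C1q transcripts, stood at 2685 CPM (2459 to 2926, 46 cells) and 4642 CPM (4593 to 4691, 662 cells), a log2 ratio of 0.79 (0.66 to 0.92). Alveolar type II (AT2) cells, which make surfactant, had a log2 ratio of 1.42 (1.25 to 1.59), with 720 CPM and 1925 CPM, and type 2 dendritic cells one of 1.21 (1.07 to 1.36), with overlapping intervals. Without Ifitm2, Ifitm3, Ifi27l2a and Bst2 these ratios were 1.31 (1.02 to 1.59) and 1.71 (1.45 to 1.97). The median AT2 cell stood at 645 and 916 CPM, and the median type 2 dendritic cell at 1711 and 5106 CPM. The free RNA estimates in AT2 cells were 418 CPM and 497 CPM, and 1 of the 52 high-burden AT2 cells held 14.7% of the member UMIs. Type 2 dendritic cells stood at 2322 and 5389 CPM, T cells 1808 and 2966 CPM, fibroblasts 4309 and 6238 CPM and type 1 dendritic cells 2075 and 2796 CPM. In type 1 dendritic cells the free RNA estimates were 306 and 808 CPM. With free RNA subtracted, their log2 ratio moved from 0.43 (0.32 to 0.54) to 0.19 (0.07 to 0.31). Those of T and AT2 cells moved up, to 0.80 (0.65 to 0.95) and 2.15 (1.92 to 2.39). Mesothelial cells, which line the surface of the lung, stood at 6743 CPM (6347 to 7157, 23 cells) and 10083 CPM (9848 to 10323, 38 cells), the highest level of the 11 classes with at least 20 cells at high burden.

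In the other 2 classes no difference beyond counting error was seen. Blood endothelium, the largest class at low burden, held 6129 CPM (504 cells) and 6147 CPM (131 cells), a log2 ratio of 0.00 (-0.03 to 0.04), which was -0.05 (-0.09 to -0.01) without the top cell of each library. B cells held 1722 and 1971 CPM, a log2 ratio of 0.19 (-0.08 to 0.47), which was -0.11 (-0.43 to 0.21) with free RNA subtracted. Club cells, the secretory cells of the airway, stood at 1096 and 1358 CPM, a log2 ratio of 0.31 (0.16 to 0.45). In the order of levels at high burden, mesothelial cells stood apart from the next class, whereas fibroblasts and blood endothelium overlapped in their intervals, as did T, metastatic and type 1 dendritic cells, and B and AT2 cells. At low burden the highest levels were in classical monocytes (11539 CPM, 24 cells) and patrolling monocytes (8928 CPM, 69 cells). These classes held 14 cells and 1 cell at high burden and were not compared. Nor were alveolar macrophages (1215 CPM, 362 cells at low burden), which held 3 cells at high burden.

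The antiviral genes, which exclude the abundant membrane proteins, had a higher log2 ratio than the whole sum in each of the 10 classes. The intervals of the 2 ratios overlapped in club cells and in B cells (0.25, -1.18 to 1.82, and 0.19, -0.08 to 0.47). With a stricter gate the order in B cells was reversed (-0.0022 and 0.085). The antiviral sum was higher at high burden in 9 of the 10 classes, with an interval of the log2 ratio above 0. In club cells (55.2 and 95.4 CPM, a log2 ratio of 0.79) the interval held 0 once free RNA was subtracted (0.37, -0.44 to 1.18) or the top cell of each library was left out (0.45, -0.21 to 1.13). In C1q macrophages it stood at 56.7 CPM (28.3 to 101, 11 UMIs) and 365 CPM (351 to 379), against 14.2 and 87.2 CPM estimated from free RNA. In mesothelial cells it stood at 312 CPM (231 to 411) and 1015 CPM (942 to 1093), with a free RNA estimate of 63.5 CPM at high burden. Type 1 dendritic cells stood at 34.5 and 195 CPM, type 2 dendritic cells 71.3 and 351 CPM, AT2 cells 30.6 and 225 CPM, fibroblasts 134 and 397 CPM and T cells 71.1 and 206 CPM. Their free RNA estimates at high burden were 75.7, 78.8, 46.5, 57.7 and 54.4 CPM, in that order, and that of club cells was 50.3 CPM. No single antiviral gene passed the filter given below in type 1 dendritic, type 2 dendritic, T, B, AT2 or club cells. At low burden those sums rested on 21, 18, 38, 7, 19 and 39 UMIs, in that order. Blood endothelium, level in the whole sum, had 252 CPM (235 to 270) and 421 CPM (386 to 458), a log2 ratio of 0.74 (0.58 to 0.90), or 0.40 (0.23 to 0.57) without the top cell of each library. In B cells the levels were 70.1 CPM (28.2 to 144, 7 UMIs) and 83.5 CPM, with 14.0 and 71.6 CPM estimated from free RNA. Antiviral transcripts above that background were thus not detectable in high-burden B cells at this depth, whereas the low-burden interval lay above its estimate.

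**Figure D1:**
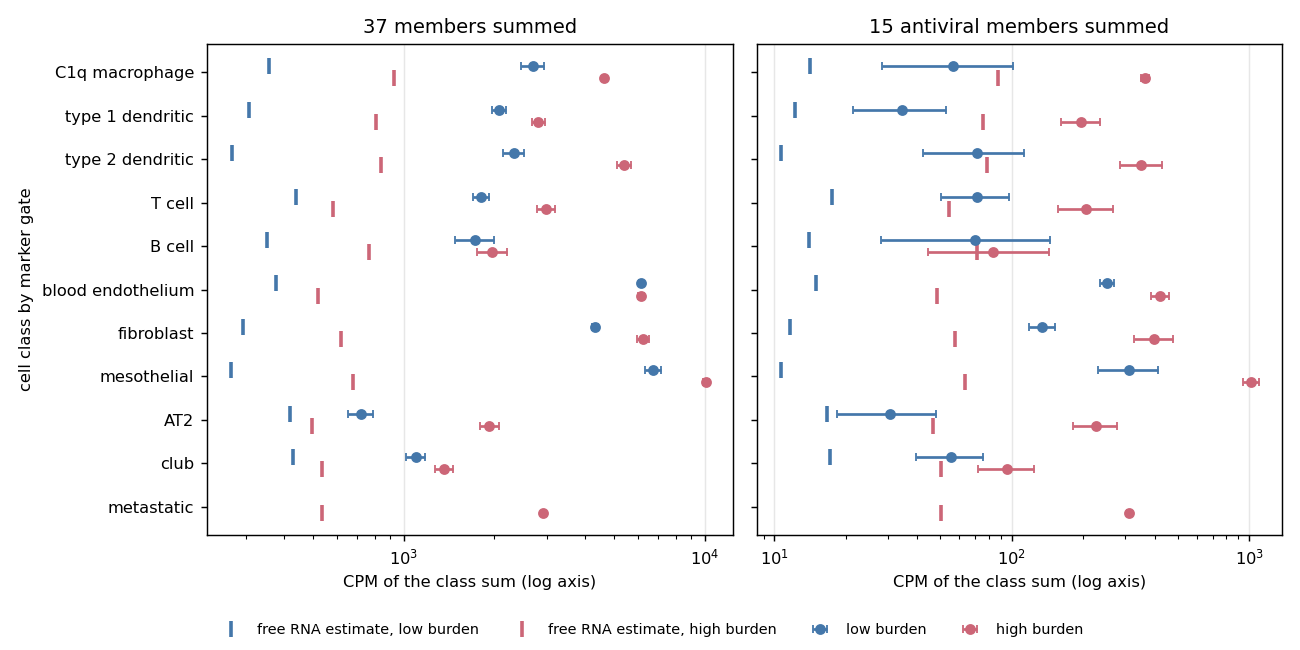
Level of the summed members (left) and of the summed antiviral genes (right) by cell class, in CPM on a log axis, at low (blue) and high (red) burden. Points are class sums of 1 library each, bars are 95% Poisson intervals and vertical ticks are the level estimated from free RNA. Mesothelial cells stand highest at high burden in both panels, and the B cell antiviral level at high burden falls on its tick.

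Single members were read where a class held at least 50 UMIs of the gene over both libraries and at least 10% of its cells in either library carried it. Among the pairs of a member and a class, 126 passed, 99 were higher at high burden, 38 of them at least 2-fold, and 1 was at least 2-fold lower. Over all genes, 7.25% of 32670 such pairs were at least 2-fold higher and 6.8% lower. With free RNA subtracted 6 member pairs were at least 2-fold lower, and with a looser gate 3. Members that passed in at least 1 class numbered 31. Oas2, Oas3, Rsad2, Ifit2, Ifi44 and Mx1 passed in none, with 11 to 78 UMIs in the low-burden library and 52 to 265 in the high-burden library. Since the filter lets in genes through either library, a count of members that passed favors those that are high in the deeper library, and the shares of all genes past 2-fold are therefore given beside each count.

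Among the transcription factors, Irf7, the amplifier of type I interferon production, had the highest ratio. Irf7 in C1q macrophages stood at 1 UMI in 46 cells (5.15 CPM) and 427 UMIs in 662 cells (57.5 CPM), a log2 ratio of 3.48 (0.99 to 8.79). In mesothelial cells Irf7 was 49.9 CPM and 132 CPM, and in blood endothelium 20.8 and 35.7 CPM. Irf8, a factor of myeloid and B cell identity that interferon gamma also induces, ranged most widely, from a log2 ratio of -0.86 (-1.69 to -0.03) in B cells to 2.58 (1.65 to 3.61) in T cells. Irf1, an early target of interferon gamma, had log2 ratios below 0 in the 4 classes in which it passed, between -0.57 and -0.39. As a group, the 5 factors were higher in 6 of 10 classes by their interval and lower in B cells, at a log2 ratio of -0.75 (-1.42 to -0.08).

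The sensors of nucleic acid were higher as a group in 8 of 10 classes. Zbp1, a sensor of Z-form nucleic acid, had 0 UMIs in the 46 low-burden C1q macrophages and 488 in the 662 high-burden ones (65.7 CPM), a log2 ratio of at least 2.09 against a floor of 3 counts in the low-burden sum. In mesothelial cells Zbp1 stood at 18.7 and 130 CPM. Oasl2, a relative of the 2′-5′ oligoadenylate synthetases, was 31.1 and 43.5 CPM in blood endothelium and 125 and 207 CPM in mesothelial cells. Ifih1, the RNA helicase MDA5, was at 20.6 and 10.9 CPM in C1q macrophages, a log2 ratio of -0.92 (-2.33 to 0.99).

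The antiviral effectors were also higher in 8 of 10 classes. Isg15, a ubiquitin-like protein that is attached to other proteins, stood at 10.3 and 98.6 CPM in C1q macrophages, 19.6 and 109 CPM in fibroblasts, 37.4 and 216 CPM in mesothelial cells and 65.3 and 113 CPM in blood endothelium. The level of Isg15 estimated from free RNA at high burden was 43.4 CPM in C1q macrophages, 28.7 CPM in fibroblasts and 31.6 CPM in mesothelial cells. In high-burden B cells that estimate was 35.6 CPM while 6.42 CPM (1 UMI) was measured. Rtp4, a chaperone of membrane receptors, stood at 20.1 and 69.1 CPM in fibroblasts and 37.4 and 129 CPM in mesothelial cells. Ifit1, which binds foreign RNA, was at 12.5 and 97.0 CPM in mesothelial cells. Usp18, which removes Isg15 and dampens the type I receptor, was at 7.78 and 20.2 CPM in blood endothelium.

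The membrane proteins formed most of the summed UMIs, and Ifitm2, Ifitm3 and Ifi27l2a passed the filter in all 10 classes. Type 1 dendritic cells were an exception, where the transcription factors held 776 of 1264 UMIs at low and 866 of 1588 at high burden. Irf8 alone made up 58.4% and 49.0% of the member UMIs there. Ifitm3, which blocks virus entry at the endosome, had a log2 ratio above 0 in each of the 10 classes, with an interval above 0 in all but B cells, between 0.09 (0.04 to 0.15) in blood endothelium and 1.49 (1.12 to 1.86) in AT2 cells. Ifitm2, its close paralog, was flatter, with log2 ratios of -0.21 to 1.01. Ifi27l2a, a small hydrophobic interferon-induced protein, also had log2 ratios above 0 in the 10 classes, from 0.08 in type 1 dendritic cells to 4.14 (3.38 to 5.01) in AT2 cells, with intervals that held 0 in type 1 dendritic, mesothelial and club cells. In AT2 cells Ifi27l2a stood at 24.2 CPM in 110 cells and 426 CPM in 52 cells, above the 34.4 CPM estimated from free RNA, but 34.1% of its UMIs came from 1 cell and 44.2% of the cells carried it. Bst2, which tethers budding virus, was 27.4 and 133 CPM in AT2 cells.

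**Figure D2:**
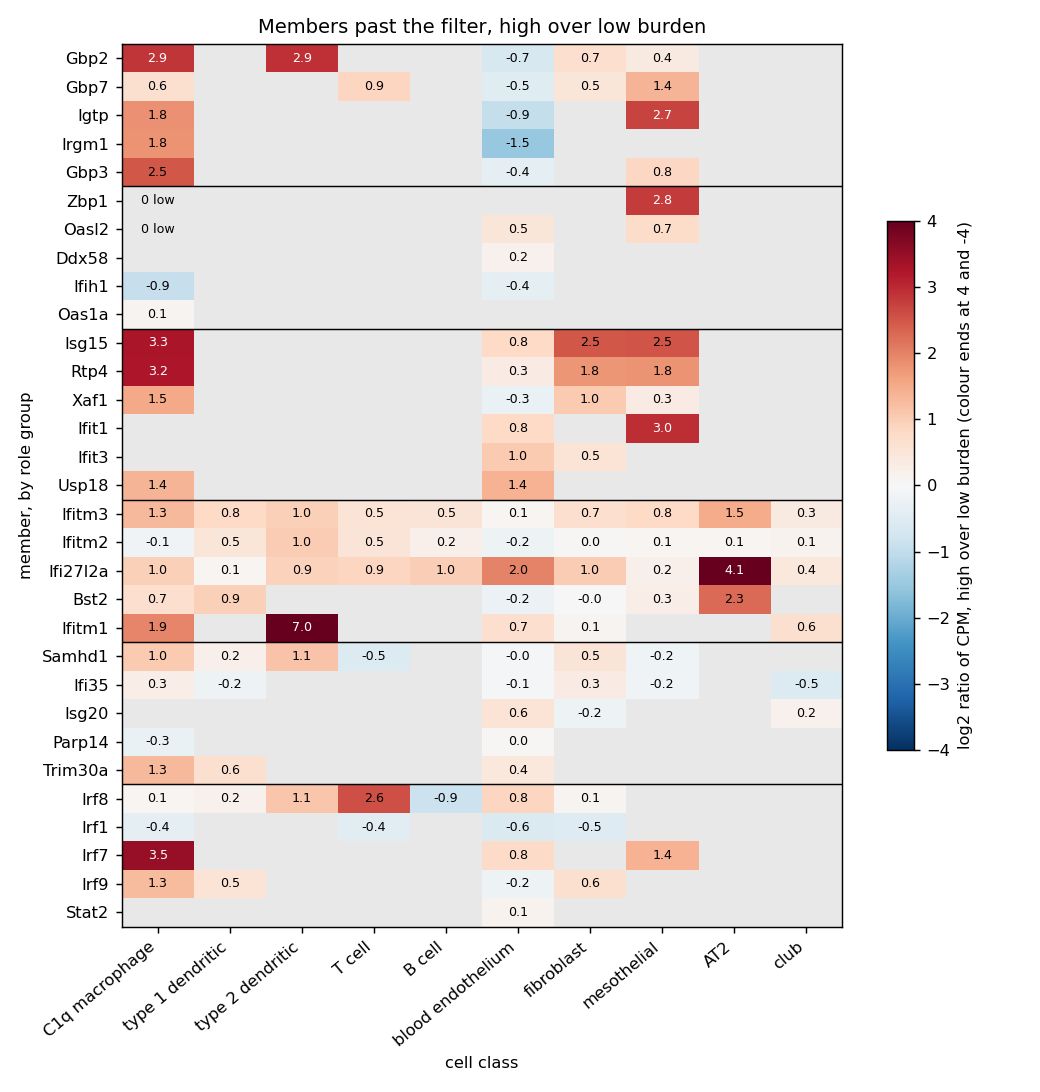
Log2 ratio of CPM, high over low burden, for the 31 members that passed the filter in at least 1 class (vertical axis, by role group) in the 10 classes (horizontal axis). Red is higher and blue lower at high burden, empty gray boxes did not pass, and "0 low" marks a member that passed with no UMI at low burden. The color scale ends at 4 and -4, and each box prints its value. Ifitm3 and Ifi27l2a are red or near 0 throughout, and the GTPases at the top are blue in blood endothelium alone.

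The GTPases, which attack the vacuoles of intracellular microbes, differed in direction between classes. Their sum was higher in 7 of 10 classes, with log2 ratios up to 1.82 (1.07 to 2.62) in AT2 cells, and lower in blood endothelium, at -0.68 (-0.85 to -0.52). Gbp2, a guanylate-binding protein, was 15.5 and 112 CPM in C1q macrophages and 31.7 and 240 CPM in type 2 dendritic cells, but 117 and 74.5 CPM in blood endothelium. Igtp was 15.5 and 55.3 CPM in C1q macrophages and 31.2 and 203 CPM in mesothelial cells, but 74.4 and 38.8 CPM in blood endothelium. Irgm1, which regulates the other immunity-related GTPases, was 62.5 CPM in low-burden and 21.7 CPM in high-burden blood endothelium, a log2 ratio of -1.52 (-2.15 to -0.95). Gbp7 in blood endothelium was 181 and 130 CPM. The difference between the classes was not tested.

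The nucleases and others differed least. Samhd1, which hydrolyzes deoxynucleotides, stood at 61.8 and 127 CPM in C1q macrophages and 139 and 307 CPM in type 2 dendritic cells, whereas in T cells it was 191 and 131 CPM with a log2 ratio of -0.54 (-1.12 to 0.02). Ifi35 had log2 ratios of -0.54 to 0.33 over the 6 classes in which it passed. As a group these 5 genes were higher in 3 of 10 classes.

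**Figure D3:**
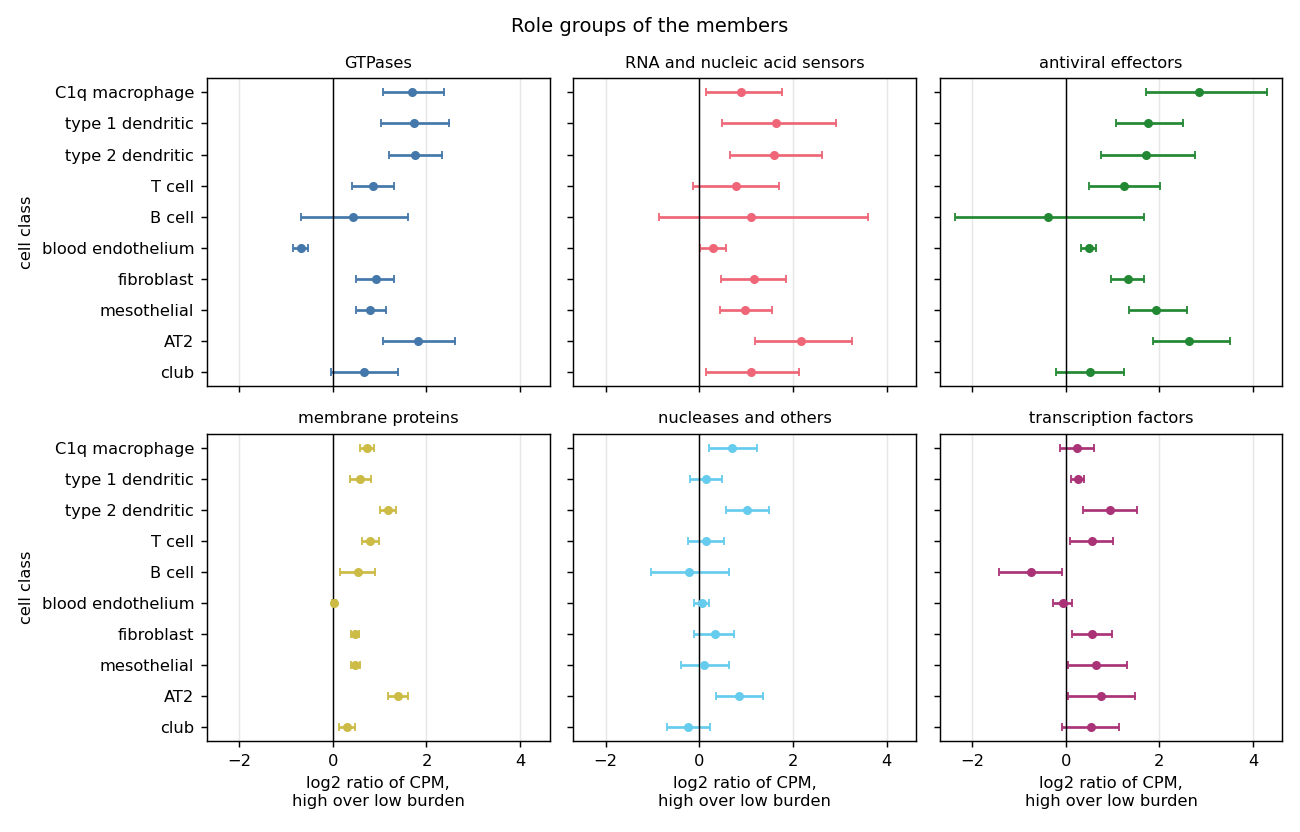
Log2 ratio of CPM, high over low burden (horizontal axis), of the summed members of each of the 6 role groups in the 10 classes (vertical axis). Points are ratios of 1 library to 1 library and bars are 95% counting intervals. Blood endothelium lies left of 0 in the GTPase panel and B cells lie left of 0 in the panel of transcription factors.

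By class, C1q macrophages held the most members past 2-fold. Of the 26 that passed, 15 were at least 2-fold higher and 0 lower, beside 15.9% higher and 12.9% lower of 7249 genes. Of these 26, 16 reached the share of cells only in the high-burden library, and the low-burden class held 46 cells. Irf7, Isg15 and Rtp4 had the highest ratios (3.48, 3.26 and 3.22 on the log2 scale), and Ifih1 (-0.92), Irf1 (-0.39) and Parp14 (-0.28) the lowest. The median log2 ratio was 1.28 over the members and 0.03 over all genes. Among type 2 dendritic cells, which present antigen to helper T cells, 5 of 7 members that passed were at least 2-fold higher, beside 10.5% of 1240 genes, and 0 lower, beside 5%, with medians of 1.12 and 0.20. Ifitm1 had 1 UMI at low and 139 at high burden there (3.96 and 514 CPM), with 27.3% of the UMIs in 1 cell. In type 1 dendritic cells, which present antigen to killer T cells, 0 of 9 were past 2-fold in either direction, beside 3.9% higher and 3.94% lower, with medians of 0.49 and 0.10. Bst2 led at 0.94 (0.30 to 1.60), followed by Ifitm3 and Trim30a, and Irf8 (0.18), Ifi27l2a (0.08) and Ifi35 (-0.22) were lowest.

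In T cells 1 of 7 members that passed was at least 2-fold higher, Irf8, beside 11.2% of all genes, and 0 lower, beside 8.69%. The median was 0.54 over the members and 0.19 over all genes. Gbp7 and Ifi27l2a each had a log2 ratio of 0.87, and Ifitm2 (0.53), Irf1 (-0.43) and Samhd1 (-0.54) were lowest. In B cells 0 of 4 were past 2-fold higher, beside 5.68%, and 0 lower, beside 8.61%, with medians of 0.36 and 0.03, where Ifi27l2a was nearest at 1.00 (0.35 to 1.70). These 2 lymphocyte classes held 30 and 24 cells at high burden.

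Among the stromal classes, 7 of 17 members that passed in mesothelial cells were at least 2-fold higher, beside 10.4% of genes, and 0 lower, beside 7.57%. Ifit1 (2.96), Zbp1 (2.80) and Igtp (2.70) led, and Ifitm2 (0.09), Ifi35 (-0.15) and Samhd1 (-0.17) were lowest. The median was 0.79 over the members and 0.08 over all genes. In fibroblasts 4 of 17 were at least 2-fold higher, beside 3.33%, and 0 lower, beside 8.72%. They were led by Isg15 at 2.48 (1.73 to 3.22), Rtp4 at 1.78 (0.90 to 2.61) and Xaf1, a proapoptotic factor, at 1.03 (0.09 to 1.89). The median was 0.52 over the members and -0.08 over all genes. Bst2 (-0.01), Isg20 (-0.21) and Irf1 (-0.51) were lowest. In blood endothelium 29 members passed, of which 3 were at least 2-fold higher, beside 2.09%, and 1 at least 2-fold lower, beside 1.7%. The medians were 0.09 and -0.02. Ifi27l2a (2.00), Usp18 (1.38) and Ifit3 (1.05) were highest, and the GTPases Gbp2 (-0.65), Igtp (-0.94) and Irgm1 (-1.52) were lowest.

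In the lung epithelium, 3 of 4 members that passed in AT2 cells were at least 2-fold higher, beside 3.4%, and 0 lower, beside 3.2%, namely Ifi27l2a, Bst2 and Ifitm3, with Ifitm2 at 0.09 (-0.29 to 0.46). In club cells 0 of 6 were past 2-fold higher, beside 4.23%, and 0 lower, beside 4.23%, with Ifitm1 highest at 0.65 (0.13 to 1.18) and Ifi35 lowest at -0.54 (-1.33 to 0.22). The medians over members and over all genes were 1.88 and 0.07 in AT2 cells and 0.26 and 0.09 in club cells. AT2 and club cells came from the same high-burden library and had C1q transcript levels of 300 and 358 CPM, against 12674 CPM in C1q macrophages, and the part of free RNA in their single members was not tested beyond the estimates given.

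All cells that were not metastatic were also pooled, 2473 at low and 1756 at high burden, and their makeup differed between the libraries. This pool kept the cells with markers of more than 1 class (319 and 312) and those given no class (57 and 239). In it 8 of 28 members that passed were at least 2-fold higher, beside 7.13% of 8126 genes, and 0 lower, beside 11.4%. The medians were 0.25 and -0.13. Members that reached the share of cells only in the high-burden library numbered 3 in blood endothelium, 3 in mesothelial cells, 2 in fibroblasts, and 1 each in type 2 dendritic and T cells. In the pool of cells that were not metastatic, 9 of the 28 members did so, and 0 reached it only at low burden.

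To ask how many cells carried a response, every cell was thinned to 3000 UMIs and called responding with at least 3 of the 15 antiviral genes. Among gated cells that were not metastatic, 29 of 1587 (1.83%, 1.23 to 2.61) responded at low burden and 86 of 1205 (7.14%, 5.75 to 8.74) at high burden. The class makeup of these pools differed. The low-burden pool held 220 alveolar macrophages, 0 of them responding, and 38 C1q macrophages, whereas 662 of the 1205 high-burden cells were C1q macrophages. The part of makeup in the pooled shares was not tested. Thinning left out 510 low-burden cells and 0 high-burden cells as too shallow, and before thinning the shares were 6.01% and 30.3%. Mesothelial cells had the highest share of the classes, 14 of 38 (36.8%, 21.8 to 54.0), against 0 of 20 at low burden, which allows up to 16.8%. The mesothelial intervals overlapped at 2000 UMIs (4.35%, 0.11 to 21.9, and 13.2%, 4.41 to 28.1), with at least 2 genes (20.0%, 5.73 to 43.7, and 55.3%, 38.3 to 71.4) and with at least 4 genes (0%, up to 16.8, and 21.1%, 9.55 to 37.3). C1q macrophages had 44 of 662 (6.65%, 4.87 to 8.82) against 0 of 38, which allows up to 9.25%, and the intervals overlapped. With at least 2 genes they were 0% (0 to 9.25) and 20.1% (17.1 to 23.3), with intervals apart. Blood endothelium had 14 of 373 (3.75%, 2.07 to 6.22) and 10 of 131 (7.63%, 3.72 to 13.6), and fibroblasts 6 of 326 (1.84%, 0.678 to 3.96) and 4 of 37 (10.8%, 3.03 to 25.4), both with overlapping intervals. Type 2 dendritic cells had 0 of 34 and 5 of 34 (14.7%, 4.95 to 31.1), and T cells 0 of 78 and 3 of 30 (10.0%, 2.11 to 26.5).

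No responding cell was found in AT2 cells (0 of 107 and 0 of 52), club cells (0 of 27 and 0 of 28) or high-burden B cells (0 of 24) of the same libraries. At high burden these counts allow shares of up to 6.85% in AT2 cells, 12.3% in club cells and 14.2% in B cells. The median depth of the high-burden classes ran from 5976 UMIs in fibroblasts to 22383 UMIs in metastatic cells, and of AT2 cells it was 6562.5 UMIs. In AT2 cells the sum of antiviral genes was thus higher at high burden while no thinned cell held 3 of them, and 9.62% held 2 or more. Without thinning, 0% and 13.5% of AT2 cells held at least 3, at median depths of 5490 and 6562.5 UMIs, as did 10.0% and 21.4% of club cells, at 27035 and 21082 UMIs.

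**Figure D4:**
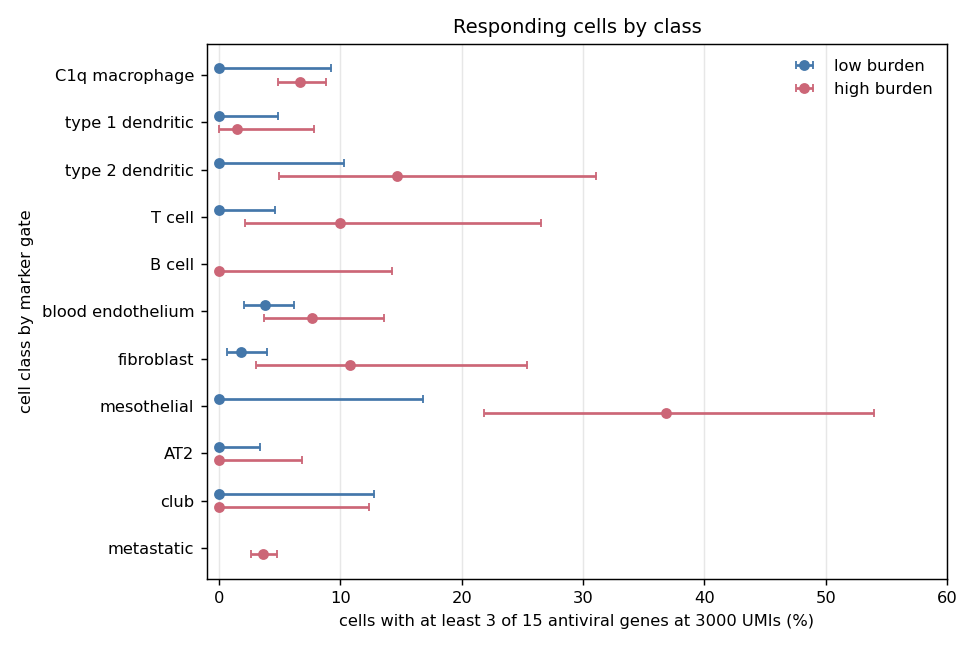
Share of cells with at least 3 of 15 antiviral genes after thinning to 3000 UMIs (horizontal axis, percent) by class at low (blue) and high (red) burden, with exact binomial 95% intervals. Classes with under 20 cells at that depth have no point. Mesothelial cells at high burden, at 36.8%, have an interval above that of metastatic cells at 3.60%.

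Metastatic cells were examined against the other 1205 gated cells of the same library. Their summed members were lower, 2891 CPM (2872 to 2910) against 4726 CPM, a log2 ratio of -0.71 (-0.72 to -0.69), and the antiviral sum was 310 against 375 CPM (-0.27, -0.32 to -0.22). Of the 37 members, 29 passed the filter. Of these, 0 were at least 2-fold higher, beside 14.3% of 9912 genes, and 14 were at least 2-fold lower, beside 13.6%. Of the 29, 3 reached the share of cells only in the other cells and 0 only in metastatic cells. The part of this filter in the count of lower members was not tested. The median log2 ratio was -0.72 over the members and 0.21 over all genes. Scaled by the median of ratios over genes, the 2 log2 ratios were -0.92 and -0.48, and with metastatic cells gated by PYMT and Ccnd1 they were -0.54 and -0.13. That last gate takes any cell with a UMI of both genes. Since PYMT was spread evenly, it can mix metastatic with other cells, and how far it did so was not tested. By role group, antiviral effectors were at 286 CPM in metastatic and 246 CPM in other cells, a log2 ratio of 0.21 that equalled the median over all genes and was 0.36 against C1q macrophages and -0.44 against blood endothelium. GTPases were at 330 and 339 CPM (-0.04, -0.09 to 0.01), sensors at 61.5 and 132 CPM, and transcription factors at 84.6 and 386 CPM.

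The members with the highest ratios in metastatic cells were Isg15, Isg20, an exonuclease of RNA, Igtp, Gbp2 and Ddx58, the RNA sensor RIG-I. Isg15 stood at 194 CPM (189 to 199) against 100 CPM in the other cells, a log2 ratio of 0.95 (0.86 to 1.04), and 90.1% of metastatic cells carried it. Its level was 98.6 CPM in C1q macrophages and 216 CPM in mesothelial cells, and free RNA would give 25.0 CPM in metastatic cells. Isg20 was at 34.2 and 19.8 CPM, Igtp at 70.8 and 57.0 CPM, Gbp2 at 147 and 123 CPM, and Ddx58 at 13.3 and 12.1 CPM, the last with an interval of the ratio that held 0 (-0.14 to 0.41).

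At the other end stood Irf8 (log2 ratio -4.09, -4.25 to -3.94), Trim30a, a regulator of inflammatory signaling (-3.98, -4.34 to -3.65), Ifi27l2a (-3.68, -3.76 to -3.61), Oas1a (-3.10, -3.61 to -2.61) and Usp18 (-2.84, -3.26 to -2.43). Irf7 was at 8.84 CPM in metastatic cells against 57.5 CPM in C1q macrophages, 35.7 CPM in blood endothelium and 132 CPM in mesothelial cells. Some of these genes, such as Irf8, are markers of blood cells, and the level of Irf8 in metastatic cells (13.3 CPM, 12.0 to 14.7) had an interval that held the 12.1 CPM estimated from free RNA. Against blood endothelium alone, which is not a blood cell class, 19 of 30 members were at least 2-fold lower in metastatic cells, beside 23.2% of genes, and 1 was at least 2-fold higher, Zbp1, beside 15.8%. Of these 30 members, 4 reached the share of cells only in blood endothelium and 1 only in metastatic cells. Against C1q macrophages 13 of 29 members were at least 2-fold lower, beside 11.6%, and 1 was at least 2-fold higher, Isg20, beside 22.2%. Of these 29 members, 3 reached the share of cells only in C1q macrophages and 3 only in metastatic cells. Of the 11 members with a promoter window that were at least 2-fold lower than in the other gated cells, 5 held the ISRE core, and of the 13 others 9 did.

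**Figure D5:**
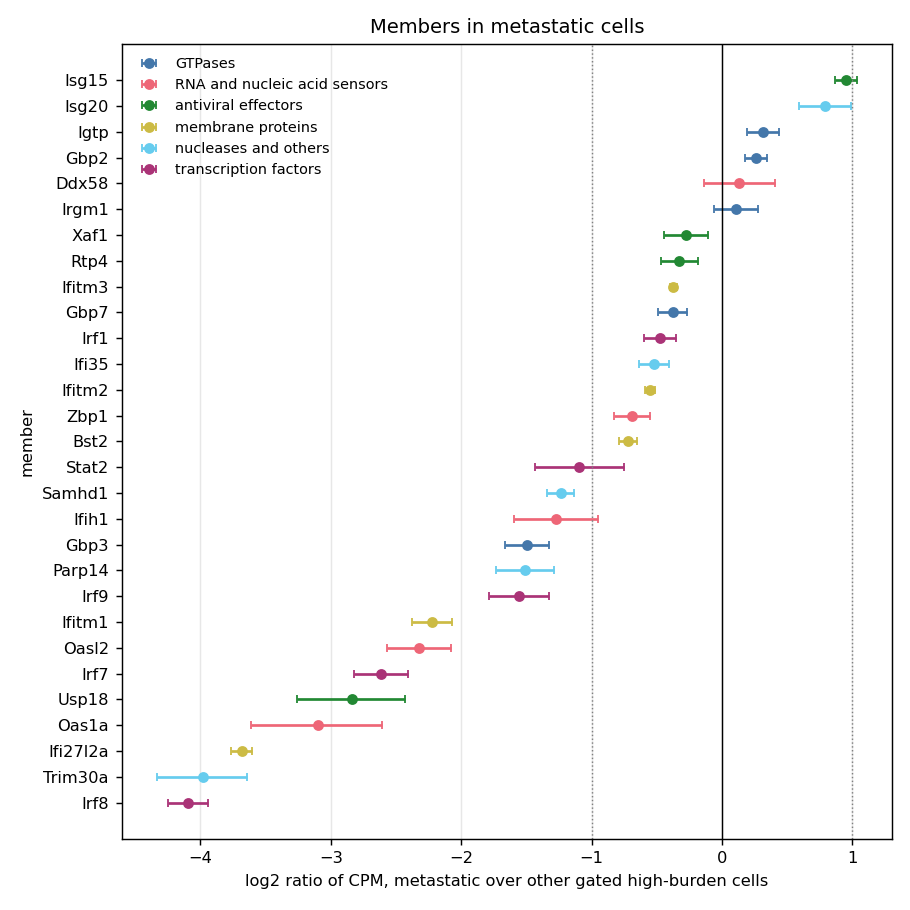
Log2 ratio of CPM, metastatic over the other gated high-burden cells (horizontal axis), of the 29 members that passed the filter (vertical axis), colored by role group, with 95% counting intervals. Dotted lines mark 2-fold. Isg15 at 0.95 is the highest point and Irf8 at -4.09 the lowest, and 14 members lie left of the lower line.

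Of the 1277 metastatic cells, 46 (3.60%, 2.65 to 4.78) were responding cells at 3000 UMIs, a share whose interval lies below those of C1q macrophages and mesothelial cells. The interval overlapped that of C1q macrophages with a looser gate (2.70 to 4.75 and 4.48 to 8.12) and with at least 4 genes (0.959 to 2.41 and 1.85 to 4.63), and without thinning the shares were 33.8% and 34.7%. Isg15 was detected in 482 (37.7%, 35.1 to 40.5), against 18.3% of C1q macrophages, 17.6% of blood endothelium and 47.4% of mesothelial cells at the same depth, and against 4.17% of 24 B cells, whose Isg15 level was below the free RNA estimate. Of the 482 with Isg15, 9.13% (6.71 to 12.1) carried at least 2 other antiviral genes, and of the 795 without it 1.76% (0.966 to 2.94) did. In C1q macrophages these shares were 25.6% of 121 cells and 10.9% of 541 cells, and in high-burden blood endothelium 39.1% of 23 cells and 4.63% of 108 cells. A single one of the 1277 cells held 40.9% of the metastatic Ifit1 UMIs.

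The 46 responding metastatic cells were also described by pathway genes that did not define them, as a description of chosen cells with no test. Iigp1, a GTPase outside the list, was 941 CPM in them and 105 CPM in the other 1231 metastatic cells, Cxcl10 164 and 16.9 CPM, and B2m, the light chain of class I histocompatibility molecules, 4226 and 1475 CPM. The receptor Ifnar1 (11.0 and 10.9 CPM) and the kinase Jak1 (52.9 and 51.7 CPM) were level. Metastatic cells with a UMI of the cycling genes Mki67 or Top2a (1142 cells) had a member sum of 2812 CPM against 3957 CPM in the 135 without, at median depths of 23540 and 14010 UMIs, and responding shares of 3.59% and 3.70%. C1q macrophages with an Arg1 UMI (75 cells) had 5149 CPM against 4571 CPM in the 587 without, and responding shares of 4.00% (0.833 to 11.2) and 6.98% (5.06 to 9.36).

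Of 52 measured other genes of the pathway, none a member, 38 passed the filter in C1q macrophages, with 11 at least 2-fold higher and 2 lower at high burden, beside 15.9% and 12.9% of all genes. In blood endothelium 0 of 36 were at least 2-fold higher and 1 lower, beside 2.09% and 1.7%. In mesothelial cells 8 of 15 were at least 2-fold higher (beside 10.4%), in fibroblasts 5 of 17 (3.33%), in type 2 dendritic cells 5 of 11 (10.5%) and in AT2 cells 3 of 7 (3.4%). The counts were 2 of 17 in type 1 dendritic cells (3.9%), 1 of 14 in T cells (11.2%), 0 of 3 in B cells (5.68%) and 0 of 5 in club cells (4.23%). At least 2-fold lower were 2 in type 1 dendritic cells (beside 3.94%) and 1 each in type 2 dendritic (5%), T (8.69%), mesothelial (7.57%) and AT2 cells (3.2%). None was lower in fibroblasts (8.72%), B cells (8.61%) or club cells (4.23%). The chemokine Cxcl10 stood at 1 UMI (5.15 CPM) and 1939 UMIs (261 CPM) in C1q macrophages and 0 and 175 UMIs in mesothelial cells (253 CPM). Ifngr1, the ligand-binding chain of the interferon gamma receptor, was at least 2-fold lower in 5 classes, at 438 and 128 CPM in C1q macrophages, 287 and 127 CPM in type 1 dendritic cells and 162 and 75.3 CPM in mesothelial cells.

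In metastatic cells against the other high-burden cells, 21 of 39 pathway genes that passed were at least 2-fold lower and 0 higher, beside 13.6% and 14.3% of all genes. Each of the 4 receptor chains was among them, with Ifnar1 at 10.9 and 47.3 CPM, Ifnar2 at 23.8 and 103 CPM, Ifngr1 at 57.1 and 130 CPM and Ifngr2 at 26.1 and 88.3 CPM. The same held for Tap1, the peptide transporter (23.4 and 77.7 CPM), and B2m (1564 and 3859 CPM). Iigp1 was at 132 and 103 CPM.

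Of the ligands, Ifnb1, Ifna4, Ifnl2 and Ifnl3 had 0 UMIs in both libraries. Taken as 3 counts over the cells of the library, this allows up to 0.121% of low-burden and 0.0989% of high-burden cells with a UMI. Ifng had 19 UMIs at low burden, 6 of them in 132 T cells and 5 in 33 natural killer cells. At high burden it had 24, of which 14 were in 30 T cells, 6 in 1277 metastatic cells and 4 in 662 C1q macrophages.

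The genes outside the list whose levels over 29 class and library sums followed the member sum most closely were Ube2l6, the conjugating enzyme for Isg15 (Pearson r = 0.81), Tnfrsf1a (0.77), Ifnar2 (0.76), Gsdmd (0.74), Ehd1, Psma7, Pigt, Htra2, Rcan1 and Pnp (0.74 to 0.71), out of 9151 genes. Among the genes that followed the antiviral sum closely were Ndufs4 (0.80), Sra1 and Psma7 (each 0.75). These sums share 2 libraries and their depths, and the coefficients are descriptions across classes.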

How the data were processed

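The authors ran Cell Ranger 2.0.2 on mm10 with the PYMT sequence added and deposited, for each library, a matrix of raw UMI counts per gene and cell. The study then aggregated its libraries, and whether the deposited counts precede that step is not given in the sources used here, nor is the handling of reads shared by similar genes. The high-burden matrix held as many cells as the study gives after aggregation and the low-burden matrix slightly more. Cells with 1000 to 7000 genes and at most 10% mitochondrial UMIs were kept. Each cell was scored for 23 classes by 143 markers (3 were absent), as the mean of marker levels scaled to their 99.5th percentile. A class was given at a score of at least 0.15 with at least 2 markers detected. Cells whose second score passed 0.6 of the best were called mixed and left out of the classes. No doublet caller was run.

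UMIs were summed by class and library and given as CPM, with exact Poisson intervals for levels, exact conditional binomial intervals for ratios and Clopper-Pearson intervals for shares. All cover counting error only. A called gene was past 2-fold among genes with at least 50 UMIs over both libraries and a UMI in 10% or more of the cells in 1 library. Free RNA was estimated from 7 abundant tracer genes. Thinning used seed 1. The ratios and their intervals were tested on simulated Poisson counts for C1q macrophages, mesothelial cells and blood endothelium, with no spread between mice. The gates, the free RNA estimate and the call of responding cells were not tested in this way. The software was Python 3.11.15, numpy 2.4.6, scipy 1.17.1, pandas 2.3.3 and matplotlib 3.10.9. The members, lists and tests were chosen with earlier results of these data known. The plan named values for the 3 highest and 3 lowest members of each class, the 2 members with most UMIs in each role group, and the 5 highest and 5 lowest in metastatic cells. In type 1 dendritic, type 2 dendritic, B and club cells only some of these members are given with a value. Other genes named with values (Irf7, Rtp4, Ifit1, Igtp, Irgm1, Gbp7 and Bst2 outside those places, and the pathway genes) were chosen after their values were seen. Coordinates came from GENCODE M21 and promoter windows from RefSeq. Alternatives were other gates, cell filters, scalings, count filters, thinning depths and gene minimums, correction for free RNA, and metastatic cells by PYMT and Ccnd1. Leaving out cells with shared barcodes and the splits by Arg1 or by Mki67 and Top2a were added after seeing the data. A gene of the pathway list is not reported here.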

Additional observations from a re-analysis of the deposited data

Results flagged for a closer look

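The summed transcription factors of B cells had a log2 ratio, high over low burden, of -0.75 (-1.42 to -0.08), from 42 UMIs in 28 cells and 39 UMIs in 24 cells, whereas the interval lay above 0 in 6 of the 10 classes. The summed GTPases of blood endothelium had a log2 ratio of -0.68 (-0.85 to -0.52), whereas the interval lay above 0 in 7 classes. Both stand out because the interval of 1 class lay below 0 while those of other classes lay above it. Blood endothelium also had a ratio below 0 for the transcription factors, -0.07 (-0.27 to 0.13). The difference between classes was not tested, since each group was 1 library.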

How the results depend on the processing

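No paired analysis was possible because each group was 1 library, and leaving out a replicate could not be run for the same reason. Among the 315 values under alternatives, no ratio whose main interval excluded 0 changed direction, but the interval of the antiviral sum in club cells came to hold 0 with free RNA subtracted or without the top cell. The member sum interval of blood endothelium lay above 0 with a stricter gate (0.04) and below 0 with a looser gate (-0.09) or without the top cell (-0.05), and that of B cells above 0 with a looser gate (0.30). Over the alternatives, the log2 ratio of the member sum ran from -0.09 to 0.09 in blood endothelium, from -0.27 to 0.36 in B cells, from 0.67 to 1.28 in C1q macrophages and from 1.18 to 2.15 in AT2 cells, and that of the antiviral sum from 2.58 to 3.16 in C1q macrophages, from 1.63 to 1.92 in mesothelial cells, from 0.40 to 0.83 in blood endothelium, from 0.37 to 0.93 in club cells and from -0.0022 to 0.45 in B cells. The ratio of metastatic to other cells in the member sum and the antiviral sum was -0.76 and -0.41 with a stricter gate, -0.92 and -0.48 with median-of-ratios scaling, -0.73 and -0.20 with free RNA subtracted, and -0.54 and -0.13 with metastatic cells by PYMT and Ccnd1. The gate by PYMT and Ccnd1 can mix metastatic with other cells, because PYMT was spread evenly. The member sum without Ifitm2, Ifitm3, Ifi27l2a and Bst2 gave -0.66, and the antiviral sum without the top cell of each library gave -0.33. With no filter on low counts, 115 pairs of a member and a class in place of 38 were at least 2-fold higher, and 16 in place of 1 were 2-fold lower, against 6 with free RNA subtracted and 3 with a looser gate. The responding shares of low-burden, high-burden and metastatic cells were 6.30%, 18.0% and 12.7% with at least 2 genes, 0.693%, 3.40% and 1.57% with at least 4, 0.906%, 4.73% and 1.80% at 2000 UMIs, 6.01%, 30.3% and 33.8% without thinning, and 1.76%, 7.72% and 2.98% with another random draw. Metastatic cells thus had the lower share of the 2 high-burden groups at each thinned setting and the higher share without thinning. The cause was not tested.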

Other observations

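At low burden, 24 classical monocytes had the highest antiviral sum of the 18 classes with at least 20 cells, 980 CPM (792 to 1199), with 12.0% of their member UMIs in 1 cell. The 38 low-burden alveolar type I cells came next at 415 CPM (328 to 519), and 2 of the 26 that reached 3000 UMIs were responding cells (7.69%, 0.946 to 25.1). Both classes held under 20 cells at high burden and entered no comparison.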
